A study of Mus musculus with 12 samples.

Results

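The genes described here are 10 glutathione S-transferases of the mouse liver: Gsta2, Gsta3 and Gsta4 of the alpha class, Gstm1, Gstm2, Gstm3 and Gstm6 of the mu class, Gstp1 of the pi class, and Gstt1 and Gstt2 of the theta class. They were chosen by symbol, and where a gene had several probe sets the brightest was to be used. Each of the 10 had exactly 1 probe set with its symbol alone, and all 10 were among the 18725 genes tested, out of 30142 genes with a usable probe set. Liver RNA was measured on 12 Affymetrix whole-transcript arrays from male C57BL/6 mice, all aged 12 weeks, in 3 groups of 4. The control group held males whose parents were lean controls. The F2 group (labelled MatOb F2) and the F3 group (MatOb F3) descended from obese Avy/a females, F2 being their grandsons and F3 their great-grandsons. Avy is the viable yellow form of agouti, and its ectopic expression makes carriers obese. These generations follow the series' design text, while the sample labels speak of F2 and F3 sons of an obese mother. The labels give neither the agouti genotype of the measured males nor the generation of each control male. Nothing in the labels says that replicates were separate animals, so the p-values measure the spread between these arrays, part of which may be technical.

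Glutathione S-transferases join glutathione to reactive, electrophilic compounds, which makes those compounds more soluble and lets the cell export them. Hepatocytes hold large amounts of these enzymes, and many alpha and mu genes are induced through the transcription factor NRF2 or through the drug-sensing receptors CAR and PXR. The classes are named by protein sequence, and several of their genes lie side by side. In the RefSeq gene order (GRCm38.p6), Gstm6, Gstm3, Gstm2 and Gstm1 follow each other on chromosome 3 with no other coding gene between them. Gstt1 and Gstt2 lie on chromosome 10 with only Gstt4 between them, Gstp1 lies next to Gstp2 on chromosome 19, Gsta2 and Gsta4 lie apart on chromosome 9, and Gsta3 is on chromosome 1.

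Promoter windows from RefSeq (GRCm38.p6) are described for 8 members, all but Gsta4 and Gstt2. The 250 bases before the start are printed for 5 members, since the values below set these 5 against each other: Gsta2 and Gsta3 of the same class, the neighbouring mu genes Gstm2 and Gstm3, and Gstp1, for which no correlation with another member passed the test. Each runs 5′ to 3′ on the gene's strand and ends at the base just before the start. Capitals mark a match to the core of the antioxidant response element, TGACNNNGC, through which NRF2 acts, or to the AP-1 site, TGAGTCA.
Gsta2: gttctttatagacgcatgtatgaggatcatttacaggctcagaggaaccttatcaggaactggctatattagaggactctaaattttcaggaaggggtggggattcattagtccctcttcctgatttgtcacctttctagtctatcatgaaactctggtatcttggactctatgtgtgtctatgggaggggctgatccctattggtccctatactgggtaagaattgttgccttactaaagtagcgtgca
Gsta3: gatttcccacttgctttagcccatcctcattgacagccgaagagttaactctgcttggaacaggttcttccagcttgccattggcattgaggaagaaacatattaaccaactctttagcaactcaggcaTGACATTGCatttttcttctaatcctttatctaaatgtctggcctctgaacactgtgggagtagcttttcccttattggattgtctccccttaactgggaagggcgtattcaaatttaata
Gstm2: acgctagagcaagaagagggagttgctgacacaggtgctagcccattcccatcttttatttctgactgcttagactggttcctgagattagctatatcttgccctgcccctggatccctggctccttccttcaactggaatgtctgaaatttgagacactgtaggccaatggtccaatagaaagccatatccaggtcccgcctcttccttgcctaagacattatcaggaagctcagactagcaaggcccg
Gstm3: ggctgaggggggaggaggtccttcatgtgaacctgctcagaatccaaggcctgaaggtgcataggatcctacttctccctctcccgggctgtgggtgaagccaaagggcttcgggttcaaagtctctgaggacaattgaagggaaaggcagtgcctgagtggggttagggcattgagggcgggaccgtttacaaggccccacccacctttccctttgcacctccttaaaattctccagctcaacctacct
Gstp1: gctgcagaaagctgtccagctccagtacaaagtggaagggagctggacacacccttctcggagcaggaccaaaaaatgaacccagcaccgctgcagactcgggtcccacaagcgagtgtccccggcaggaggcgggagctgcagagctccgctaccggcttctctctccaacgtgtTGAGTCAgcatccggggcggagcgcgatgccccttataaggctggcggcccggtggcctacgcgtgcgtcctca
The windows are Gsta2 at chr9:78347146-78347395 (minus strand), Gsta3 at chr1:21240335-21240584 (plus strand), Gstm2 at chr3:107986421-107986670 (minus strand), Gstm3 at chr3:107969175-107969424 (minus strand) and Gstp1 at chr19:4037913-4038162 (minus strand).

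Both strands of each window, with 50 bases after the start included, were searched for 5 short motifs. The TGACNNNGC core was found in 1 of the 8 members, Gsta3, as TGACATTGC from -121 to -113 counted back from the start, and 12.4% of all 32851 windows held it. TGAGTCA was found in Gstp1 alone among the 8, from -74 to -68, and 5.2% of all windows held it. These 2 motifs can overlap each other, but the matches here did not. In Gstp1 the match is followed by gc, so the stretch TGAGTCAgc differs from TGACNNNGC in only 1 letter. Variants of the TGACNNNGC core were not searched for. Gstm1 and Gstm6 had more than 1 window, and all were searched. The GC box GGGCGG was found in Gstm3 and Gstp1 (35.7% of all windows). TATAAA was found in only 1 of the windows of Gstm1 and, on the opposite strand and far from the start, in Gsta2 (13.6%). GCGTG, the core of the element bound by the aryl hydrocarbon receptor, was found in Gstm1, Gsta2 and Gstp1 (32.4%). The pi genes had the most similar windows: 82.0% of 300 bases were identical in a gapped alignment between Gstp1 and its neighbour Gstp2, against 52.7% to 62.7% between any 2 of the 8 members. Only the first listed window of each gene was aligned. A match to such short letters describes the window and does not show a bound factor.

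The values are on the authors' log2 scale, on which a difference of 1 is a 2-fold change, and they are compared here only within a probe set. Hepatocyte markers such as albumin were bright on every array, as in liver: 8 of 10 were measured, with means between 12.43 and 13.31. Control probe sets, picked by a name that marks them as negative controls and not checked for what they match, had a median of 4.24 and a 95th percentile of 7.05. The mean of Gsta2, 6.39, lay under that percentile, and the means of Gstm6 (7.11) and Gstt2 (7.28) lay just above it. Medians of the arrays lay between 4.49 and 4.60. The arrays also fell into a set of 7 with higher and a set of 5 with lower small nucleolar RNA levels (62 genes). The lower set was made up of F3 replicate 4, control replicates 1 and 3, and replicates 2 and 3 of F2. In bulk liver RNA, fewer cells of a type and less RNA per cell cannot be told apart.

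All 10 members had their highest group mean in control liver, but no member passed the test in F2 or in F3. The F2 group lay below control for 10 of 10 members, with a median log2 difference of -0.25, and F3 lay below control for 10 of 10, with a median of -0.27. Over all genes tested, 56.7% lay below control in F2 and 54.7% in F3, and both medians were -0.01. Both comparisons use the same 4 control arrays, so they are not independent of each other. The members were chosen with earlier results of these data known, so the counts of 10 of 10 are given as a description. In limma's fit over all genes, 0 of 10 members had an adjusted p under 0.05 in either comparison, where the background share of genes called was 0.0% in each. At an unadjusted p under 0.05, 2 of 10 members were lower in F2 (0.577% of all genes tested, and 0.919% in either direction) and the same 2 were lower in F3 (1.28%, and 2.93% in either direction): Gstm2 and Gstm6. With a block for array set the count was 3 of 10 in F2 (1.08% of all genes tested), with Gstm3 added, and 6 of 10 in F3 (1.62%), with Gsta4, Gstm1, Gstt1 and Gstt2 added (unadjusted p 0.0221, 0.0485, 0.0324 and 0.0417 in limma). With quantile normalization it was 3 of 10 in F2 (0.422%), with Gstm3 added, and 4 of 10 in F3 (1.86%), with Gstm3 and Gstt1 added. No member passed after adjustment in those fits either. These counts depend in part on 1 array. Without control replicate 2, 9 of 10 members lay below control in each comparison, with medians of -0.18 in F2 and -0.16 in F3. In that setting 57.3% of all genes tested lay below control in F2 and 56.8% in F3, both with medians of -0.02. Without both control replicate 2 and F2 replicate 2, 7 of 10 lay below control in F2, with a median of -0.04. That median was close to the -0.03 of all genes tested in the same setting, of which 58.1% lay below control.

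**Figure D1:**
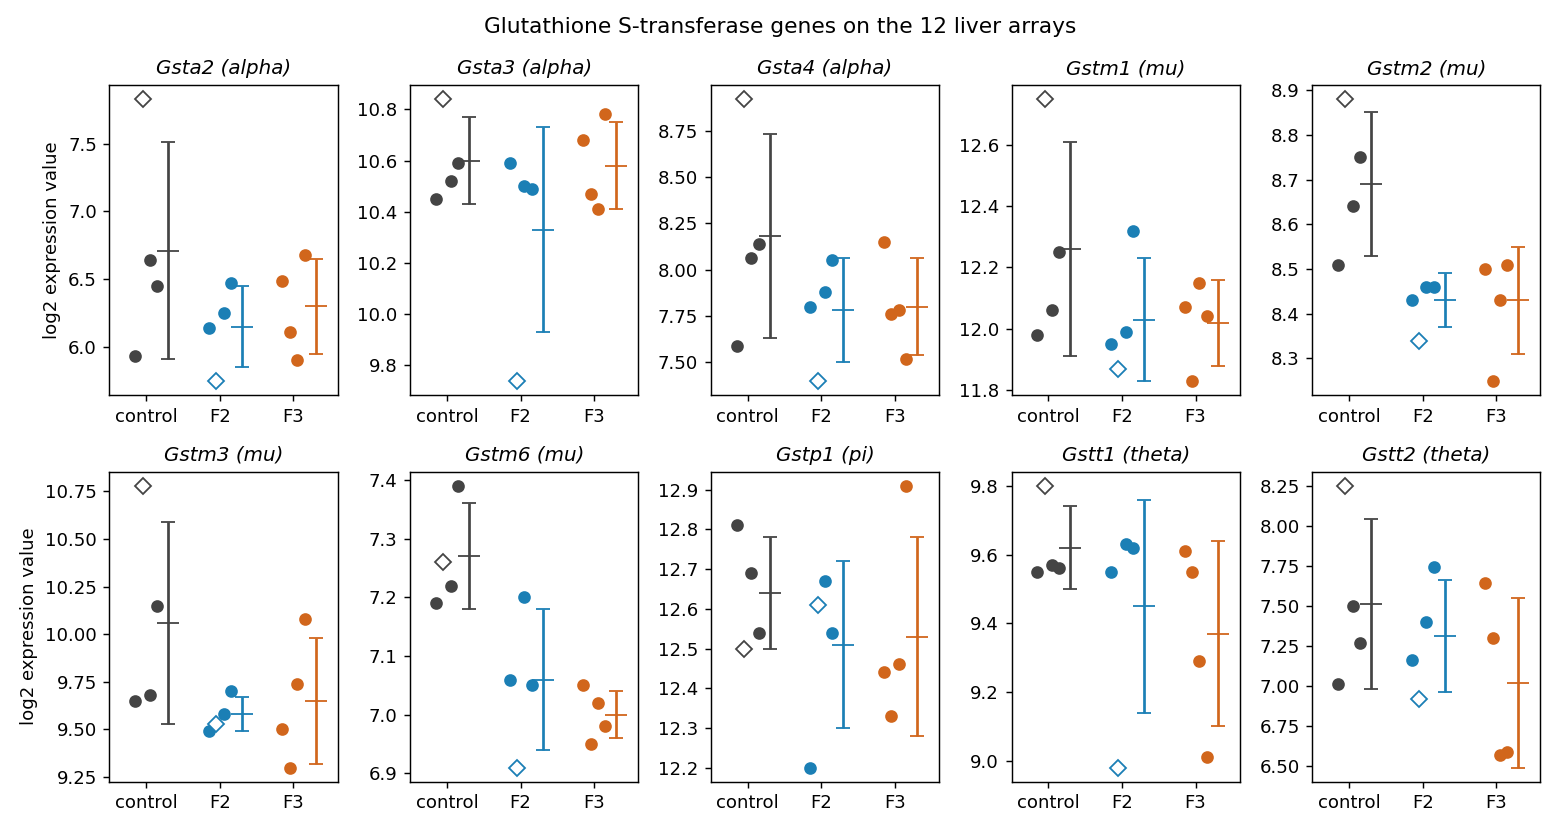
Log2 expression value (vertical axis, scaled separately in each panel) of the 10 glutathione S-transferases on the 4 arrays of each group (horizontal axis). Circles are arrays, open diamonds are the replicates numbered 2 in the control and F2 groups, and bars show the mean ± SD; control replicate 2 is the highest of the 12 arrays for 8 of the 10 genes.

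The mu class encodes abundant liver enzymes that conjugate epoxides and aryl halides, and in the fit without a block it held both members with an unadjusted p under 0.05. Gstm2 read 8.51, 8.88, 8.64 and 8.75 on control replicates 1 to 4, 8.43, 8.34, 8.46 and 8.46 on the F2 arrays, and 8.50, 8.25, 8.43 and 8.51 on the F3 arrays. All 4 F2 arrays lay below all 4 control arrays, and the F3 arrays met the control range only at its lower edge. The log2 difference was -0.27 in F2 (SE 0.0841, 95% interval -0.45 to -0.09), a level lower by 17.0%, with an unadjusted p of 0.00758 and an adjusted p of 0.9999 in limma. In F3 it was also -0.27 (95% interval -0.45 to -0.09), with an unadjusted p of 0.00751 and an adjusted p of 0.9998 in limma. By p, Gstm2 ranked 11 among the 18725 genes in F2 and 48 in F3.

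Gstm6 is the mu gene that lies next to Gstm3. It read 7.19, 7.26, 7.22 and 7.39 on the control arrays, 7.06, 6.91, 7.20 and 7.05 on the F2 arrays, and 7.05, 6.95, 7.02 and 6.98 on the F3 arrays. No F3 array reached the control range, and of the F2 arrays only replicate 3 did. All 4 F3 arrays and F2 replicates 2 and 4 read at or under 7.05, the 95th percentile of the control probe sets, so no fold in level is given. The log2 difference was -0.21 in F2 (SE 0.0697, 95% interval -0.36 to -0.06, unadjusted p 0.0107 and adjusted p 0.9999 in limma). In F3 it was -0.26 (95% interval -0.42 to -0.11, unadjusted p 0.00245 and adjusted p 0.9998 in limma). A gene whose groups did not overlap and lay below control was found for 1 of 10 members in each comparison, Gstm2 in F2 and Gstm6 in F3, beside 0.401% and 0.903% of all genes tested. Without control replicate 2, Gstm2 differed by -0.21 in both groups, and Gstm6 by -0.21 in F2 and -0.27 in F3. Within the higher array set Gstm2 differed by -0.36 in F2 and -0.42 in F3, and within the lower set by -0.17 and -0.06. The corresponding values of Gstm6 were -0.27 and -0.32, then -0.15 and -0.22. The lower set holds only 1 F3 array. With a block for array set the differences were -0.27 and -0.29 for Gstm2 and -0.21 and -0.28 for Gstm6. Over the alternative settings run, the lowest adjusted p of either gene was 0.614 in F2 and 0.598 in F3.

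Gstm1, a main mu-class subunit of mouse liver, and Gstm3, a strongly inducible one, were high on control replicate 2. Gstm1 read 11.98, 12.75, 12.06 and 12.25 on the control arrays, 11.95, 11.87, 11.99 and 12.32 on the F2 arrays, and 12.07, 11.83, 12.15 and 12.04 on the F3 arrays. The 3 groups overlapped. Its log2 difference was -0.23 in F2 (95% interval -0.56 to 0.10, unadjusted p 0.16 in limma) and -0.24 in F3 (-0.57 to 0.09, p 0.143), and it became -0.06 and -0.08 without control replicate 2. Gstm3 read 9.65, 10.78, 9.68 and 10.15 on the control arrays, 9.49, 9.53, 9.58 and 9.70 on the F2 arrays, and 9.50, 9.30, 9.74 and 10.08 on the F3 arrays. Among the control arrays replicates 2 and 4 stood above the others, and among the F3 arrays replicate 4 did. Its log2 difference was -0.49 in F2 (95% interval -0.98 to 0.00, unadjusted p 0.0508 in limma) and -0.41 in F3 (-0.90 to 0.08, p 0.0928). Without control replicate 2 these values were -0.25 and -0.17. In the higher array set Gstm3 differed by -0.87 in F2 and -0.95 in F3. In the lower set, with its 1 F3 array, the differences were -0.11 and 0.41, so the sets disagreed in direction for F3.

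The alpha class held the member with the largest spread between arrays. Gsta2, an inducible alpha enzyme, read 5.93, 7.83, 6.64 and 6.45 on the control arrays, 6.14, 5.75, 6.25 and 6.47 on the F2 arrays, and 6.49, 6.11, 5.90 and 6.68 on the F3 arrays. Control replicate 2 lay 1.57 above the mean of the other 11 arrays, and it was the only array above 7.05, the 95th percentile of the control probe sets. The log2 difference was -0.56 in F2 (95% interval -1.27 to 0.15, unadjusted p 0.111 in limma) and -0.41 in F3 (-1.12 to 0.29, p 0.228). Without control replicate 2 these values were -0.19 and -0.04.

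Gsta4, which removes the lipid peroxidation product hydroxynonenal, read 7.59, 8.92, 8.06 and 8.14 on the control arrays, 7.80, 7.40, 7.88 and 8.05 on the F2 arrays, and 8.15, 7.76, 7.78 and 7.52 on the F3 arrays. Control replicate 1 lay below all F3 arrays except replicate 4 and control replicate 2 stood above all others. Its log2 difference was -0.39 in F2 (95% interval -0.91 to 0.12, unadjusted p 0.122 in limma) and -0.37 in F3 (-0.89 to 0.14, p 0.14), and it became -0.15 and -0.13 without control replicate 2. Gsta3, the alpha enzyme that detoxifies aflatoxin epoxide in mice, read 10.45, 10.84, 10.52 and 10.59 on the control arrays, 10.59, 9.74, 10.50 and 10.49 on the F2 arrays, and 10.68, 10.47, 10.41 and 10.78 on the F3 arrays. Only F2 replicate 2 stood apart, 0.83 below the mean of the other 11 arrays. Its log2 difference was -0.27 in F2 (95% interval -0.63 to 0.09, unadjusted p 0.133 in limma), which became -0.07 without F2 replicate 2, and -0.02 in F3 (-0.38 to 0.35, p 0.927), which became 0.06 without control replicate 2.

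Gstp1, the main pi-class enzyme of male mouse liver, took its extremes on other arrays than the rest. It read 12.81, 12.50, 12.69 and 12.54 on the control arrays, 12.20, 12.61, 12.67 and 12.54 on the F2 arrays, and 12.44, 12.33, 12.46 and 12.91 on the F3 arrays. The lowest array was F2 replicate 1 and the highest F3 replicate 4, while control replicate 2, the highest array for 8 other members, lay 0.06 below the mean of the others. The log2 difference was -0.13 in F2 (95% interval -0.42 to 0.16, unadjusted p 0.351 in limma) and -0.10 in F3 (-0.39 to 0.19, p 0.464). Gstp2 could not be read separately here, because its probe set carries several symbols, and whether the Gstp1 probe set also detects Gstp2 was not tested. Cross-detection was likewise not tested for the closely related mu genes or for the alpha genes, of which Gsta1 had no probe set with its symbol alone.

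The theta class, which acts on small halogenated molecules and on sulfate esters, was low on both F2 replicate 2 and a pair of F3 arrays. Gstt1 read 9.55, 9.80, 9.57 and 9.56 on the control arrays, 9.55, 8.98, 9.63 and 9.62 on the F2 arrays, and 9.61, 9.55, 9.29 and 9.01 on the F3 arrays. Outside F2 replicate 2 and F3 replicates 3 and 4, the 9 other arrays lay between 9.55 and 9.80. Its log2 difference was -0.17 in F2 (95% interval -0.51 to 0.17, unadjusted p 0.295 in limma), which became -0.02 without F2 replicate 2, and -0.25 in F3 (-0.59 to 0.09, p 0.136), which became -0.13 without F3 replicate 4. Gstt2 read 7.01, 8.25, 7.50 and 7.27 on the control arrays, 7.16, 6.92, 7.40 and 7.74 on the F2 arrays, and 7.64, 7.30, 6.57 and 6.59 on the F3 arrays. F3 replicates 3 and 4 were the lowest of the 12 arrays, and control replicate 2 the highest. Those 2 F3 arrays, F2 replicate 2 and control replicate 1 lay under 7.05, the 95th percentile of the control probe sets. Its log2 difference was -0.20 in F2 (95% interval -0.84 to 0.43, unadjusted p 0.504 in limma), which became 0.05 without control replicate 2, and -0.49 in F3 (-1.12 to 0.15, p 0.123), which became -0.24.

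**Figure D2:**
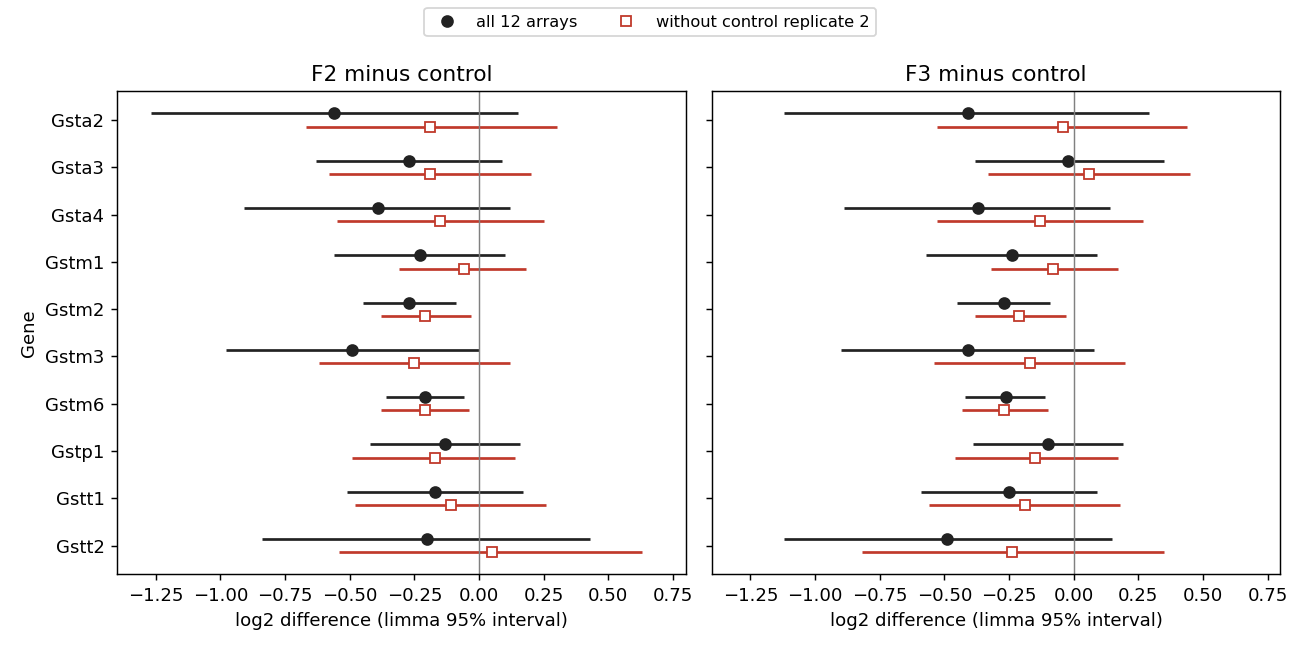
Log2 difference from control (horizontal axis) of each gene in F2 (left) and F3 (right), with limma's 95% interval, from all 12 arrays (filled circles) and without control replicate 2 (open squares). In the fits of all 12 arrays the intervals of Gstm2 and Gstm6 lie below 0 in both panels, and these intervals are not adjusted for the number of genes; leaving out control replicate 2 moves Gsta2 from -0.56 to -0.19 in F2.

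The direct comparison of F3 with F2, which involves no control array, found 5 of 10 members lower in F3 (48.6% of all genes tested were) and 5 higher, with a median of 0.01. No member passed limma's test after adjustment (0.0% of all genes tested did) or at an unadjusted p under 0.05 (2.37% of all genes tested did). The 2 genes with the lowest p against control are given first: F3 minus F2 was -0.00 for Gstm2 (95% interval -0.18 to 0.18) and -0.05 for Gstm6 (-0.21 to 0.10). The largest differences were 0.25 for Gsta3 (-0.11 to 0.62), which became 0.06 without F2 replicate 2, and -0.28 for Gstt2 (-0.92 to 0.35).

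The spread between arrays was larger for most members than for genes in general. The SD over the 12 arrays ranged from 0.14 for Gstm6 to 0.54 for Gsta2, where the median gene tested had 0.12. For 7 of 10 members it exceeded the 90th percentile of 0.236: Gsta2, Gsta3, Gsta4, Gstm1, Gstm3, Gstt1 and Gstt2. From the lowest to the highest array the log2 value of Gsta2 spanned 2.08 and that of Gstt2 1.69, while that of Gstm6 spanned 0.48. The low ends of these spans lay under 7.05, the 95th percentile of the control probe sets, so they are not given as folds in level. Control replicate 2 was highest for 8 of 10 members (14.5% of all genes tested). Without it the SD went from 0.54 to 0.31 for Gsta2, from 0.40 to 0.26 for Gsta4, from 0.40 to 0.25 for Gstm3 and from 0.25 to 0.15 for Gstm1. It went from 0.48 to 0.39 for Gstt2, the largest of the 10 without that array, and from 0.25 to 0.24 for Gstt1, and it was 0.27 with and without it for Gsta3. F2 replicate 2 was lowest for 5 members, Gsta2, Gsta3, Gsta4, Gstm6 and Gstt1 (8.79% of all genes tested).

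**Figure D3:**
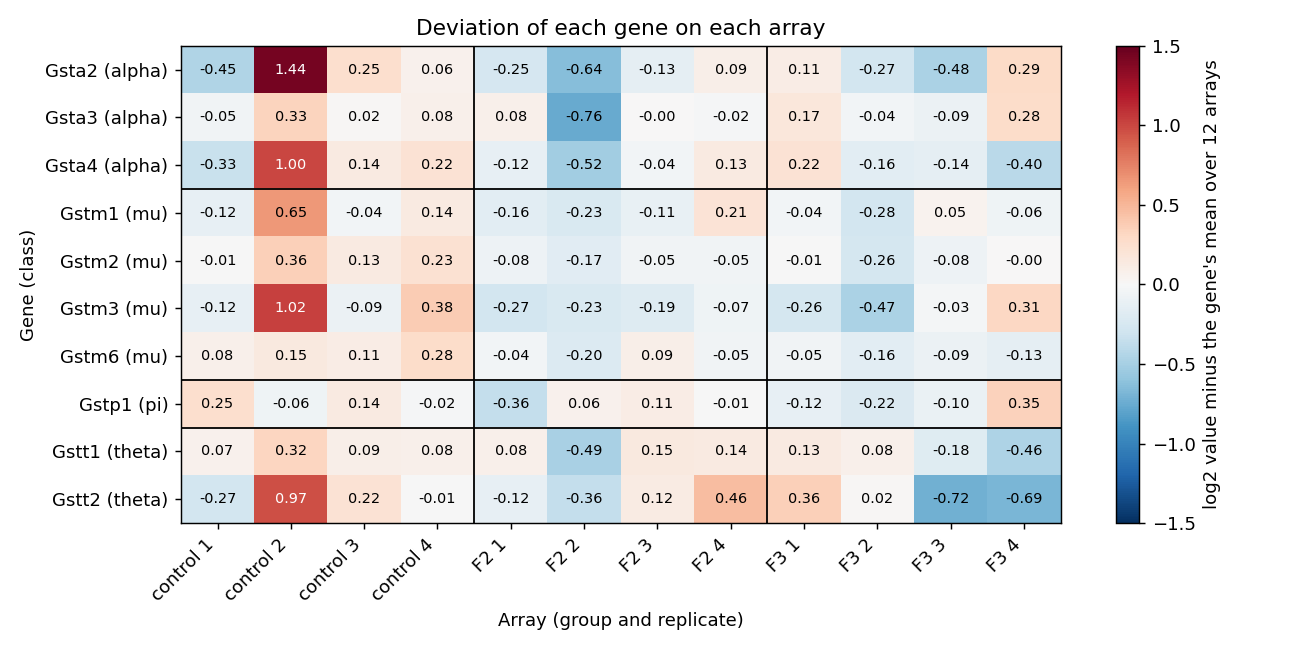
Log2 value minus the gene's own mean over the 12 arrays for each gene (rows, by class) on each array (columns, by group); red is above and blue below that mean. Control replicate 2 is above the mean for 9 of the 10 genes, F2 replicate 2 is below it for 9, and Gstp1 is the exception on both.

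Set side by side, the classes differed in which arrays were high or low. The median deviation on control replicate 2 was 1.00 for the alpha genes, 0.64 for the theta genes and 0.51 for the mu genes, against -0.06 for Gstp1. On F2 replicate 2 it was -0.64 for alpha, -0.42 for theta and -0.22 for mu, against 0.06 for Gstp1. The theta genes were low on F3 replicates 3 and 4 (-0.45 and -0.58), where the mu genes lay near their means (-0.06 and -0.03) and the alpha genes at -0.14 and 0.28. The median over a class's genes of their group mean deviations was 0.26 in control, -0.17 in F2 and -0.09 in F3 for alpha, and 0.17, -0.08 and -0.10 for mu. It was 0.08, -0.05 and -0.02 for Gstp1, and 0.18, -0.00 and -0.18 for theta. No test of a difference between classes was run.

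By the median r, members of a class varied together from array to array more closely than members of different classes. Over the 12 arrays the median Pearson r was 0.81 for the 10 pairs within a class (range 0.52 to 0.87) and 0.46 for the 35 pairs between classes (-0.38 to 0.87), a difference that is given as a description. Of all 45 pairs, 14 had a permutation p under 0.05 after Benjamini-Hochberg adjustment over the 45, 6 of them within a class. The 35 pairs between classes include 9 with Gstp1 (median r -0.01), which has no pair within its class and so lowers their median only. Without control replicate 2, an array left out after the data were seen, the medians within and between classes were 0.63 and 0.34. The theta pair Gstt1 and Gstt2 had r = 0.80 (permutation p 0.00119, adjusted 0.0113) and rho = 0.91 (p 0.00015, adjusted 0.00585). Without the 2 arrays farthest from the median of Gstt1, F2 replicate 2 and F3 replicate 4, r was 0.93. It was 0.97 in the higher array set, and the lower set holds too few arrays for a value.

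Within the mu class, Gstm2 and Gstm6 had r = 0.82 (permutation p 0.00082, adjusted 0.0113) and rho = 0.78 (p 0.00404, adjusted 0.0303), with r = 0.72 without the 2 farthest arrays, 0.90 in the higher set and 0.85 without control replicate 2. After the group means were subtracted it was 0.53. Gstm1 and Gstm3 had r = 0.87 (permutation p 0.00176, adjusted 0.0113), with rho = 0.79 (p 0.00332, adjusted 0.0299), 0.77 without the 2 farthest arrays and 0.94 in the higher set. Gsta2 and Gsta4 had r = 0.86 (permutation p 0.00279, adjusted 0.0139), but rho was 0.63 (p 0.0323, adjusted 0.109). Their r was 0.99 in the higher set, which holds control replicate 2, and 0.58 without that array. It was 0.41 without control replicate 2 and F2 replicate 2, so its size depends on those arrays. Gsta2 and Gsta3 showed the reverse: r = 0.69 did not pass (permutation p 0.0577, adjusted 0.137), while rho was 0.89 (p 0.00026, adjusted 0.00585), and r was 0.71 without those arrays.

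Across classes 8 pairs passed, and all 8 hold Gsta2 or Gsta4. Gsta4 and the mu gene Gstm1 had r = 0.87 (permutation p 0.00163, adjusted 0.0113) and rho = 0.73 (p 0.00927, adjusted 0.0472), and r was 0.53 without control replicate 2 and F2 replicate 2. Gsta4 with Gstm2 (r = 0.78), and Gsta2 with Gstm1 (0.84), Gstm3 (0.82), Gstm2 (0.80) and Gstt2 (0.71), also passed (adjusted permutation p between 0.0139 and 0.0341), and without those 2 arrays their r lay between 0.34 and 0.51. With Gstt2, Gsta4 had r = 0.85 (permutation p 0.00039, adjusted 0.0099) and rho = 0.80 (p 0.00315, adjusted 0.0299), and r was 0.76 without those arrays and 0.83 in the higher array set. With Gstt1 it had r = 0.75 (permutation p 0.00507, adjusted 0.0207) and rho = 0.86 (p 0.00062, adjusted 0.0093), and r was 0.64 without those arrays. None of the 9 pairs with Gstp1 passed. Their r ranged from -0.38 with Gstt1 (permutation p 0.221, adjusted 0.292) to 0.23 with Gstm3, with a median of -0.01. Gstp1 read higher on every array of the lower set than on any array of the higher set. In the higher array set alone the 9 pairs had a median r of 0.49, and these values were not tested within that set of 7 arrays.

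**Figure D4:**
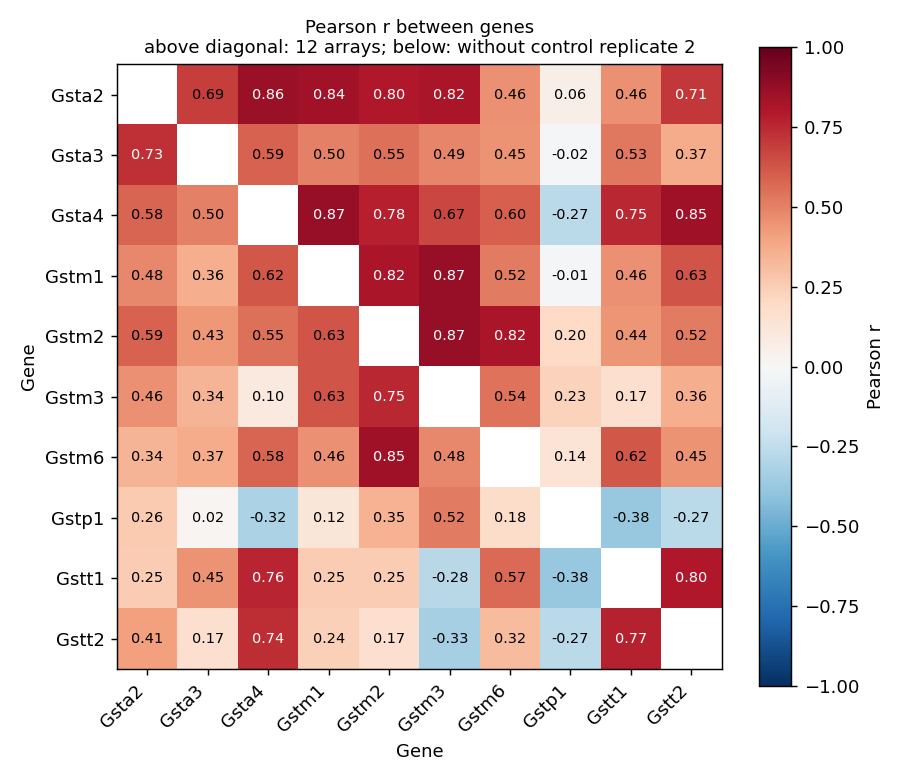
Pearson r between each 2 of the 10 genes, over the 12 arrays above the diagonal and without control replicate 2 below it; the colour scale runs from -1 to 1. The row and column of Gstp1 are pale above the diagonal, and Gstt1 with Gstt2 read 0.80 above the diagonal and 0.77 below it.

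For the member with the largest spread in each class, the genes outside the family whose 12 values followed it most closely were named, with r as a description. Gsta2 was followed by Fth1, the ferritin heavy chain (r = 0.94, and 0.79 without control replicate 2), Emc1 (0.92 and 0.72) and Prkd3 (0.91 and 0.70). Gstm3 was followed by Ugdh, which makes UDP-glucuronate (0.94 and 0.81), Lgr5, a Wnt pathway receptor (0.91 and 0.79), and Ints4 (0.88 and 0.81). Gstt2 was followed by Rbm17 (0.95 and 0.94), Calcoco1 (0.93 and 0.94) and Serpina6, the corticosteroid-binding globulin (0.90 and 0.85). Gstp1 was followed by Wdr46 (0.94 and 0.95), Fxyd1 (0.92 and 0.92) and Psmf1 (0.92 and 0.95).

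Of 19 other transferases and related genes, 15 were measured and 12 tested, and none passed after adjustment in limma. In F2, 9 of 12 lay below control (median -0.09) and in F3 8 of 12 (median -0.08). Gstt3, the theta gene beside Gstt1, was the only one with an unadjusted p under 0.05 against control: it differed by -0.53 in F2 (SE 0.227, unadjusted p 0.0365, adjusted p 0.9999 in limma), which became -0.31 without F2 replicate 2. Gstm5 differed between F3 and F2 by 0.19 (SE 0.0729, unadjusted p 0.0235, adjusted p 0.9999 in limma). Gstm4, beside Gstm1 in the mu cluster, read 9.47 on control replicate 2, 1.12 above the mean of the other 11 arrays.

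Genes that make glutathione, and genes that use it in other ways, are given next, and none passed after adjustment in limma. Of 16 tested genes of glutathione synthesis and turnover, 12 lay below control in F2 and 11 in F3, with medians of -0.04 in both. Among them Chac2, which degrades glutathione, differed by 0.20 in F3 (SE 0.069, unadjusted p 0.0139, adjusted p 0.9998 in limma), and Oplah, the oxoprolinase of the same cycle, by -0.30 between F3 and F2 (SE 0.113, unadjusted p 0.0214, adjusted p 0.9999). Of 19 tested genes of glutathione peroxidases, glutaredoxins, conjugate exporters and related enzymes, 12 lay below control in F2 (median -0.06) and 13 in F3 (median -0.02). The peroxidase Gpx7 differed by -0.16 in F2 and -0.14 in F3 (unadjusted p 0.025 and 0.0453, adjusted p 0.9999 and 0.9998 in limma).

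Known upstream factors were read from a list of 20 tested regulators, of which 10 lay below control in F2 (median 0.00) and 16 in F3 (median -0.08), none passing after adjustment in limma. Nfe2l2, which encodes NRF2, differed by -0.24 in F2 and -0.14 in F3, and Nr1i3, which encodes CAR, by -0.05 and -0.31, without passing at an unadjusted p under 0.05. The related factor Nfe2l1 differed by -0.24 in F3 (unadjusted p 0.0171, adjusted p 0.9998 in limma) and by -0.28 between F3 and F2 (p 0.00709, adjusted p 0.9999). Rxra, the partner receptor of CAR and PXR, differed between F3 and F2 by -0.25 (SE 0.0656, unadjusted p 0.0026, adjusted p 0.9999 in limma).

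Targets of NRF2 outside the family were high on control replicate 2, as most of the transferases were. Of 18 tested targets, 17 lay below control in F2 (median -0.12) and 15 in F3 (median -0.19), and none passed after adjustment in limma. Without control replicate 2 the counts were 13 in each and the medians -0.02 and -0.03. Pgd, an NADPH-producing enzyme, differed by -0.38 in F2, and Srxn1, Ugdh and Ftl1 by -0.27, -0.44 and -0.23 in F3 (unadjusted p 0.037, 0.0251, 0.037 and 0.0412, adjusted p 0.9999 in F2 and 0.9998 in F3 in limma). On control replicate 2 the median deviation of the 18 targets was 0.47. There 15 of 18 had their highest value (14.5% of all genes tested), against 8 of 10 transferases. Nqo1, the quinone reductase used as an NRF2 marker, read 6.07 there, 1.19 above the mean of the other 11 arrays, and Gclc, which makes the glutathione precursor, read 11.22, or 1.00 above. The targets Hmox1 and Osgin1 were not high there, at -0.08 and -0.85 from the mean of the others. These 4 targets, Gstm4, Nfe2l2 and Nr1i3 were named after their values were seen.

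Targets of CAR and PXR were low on F2 replicate 2. Of 15 tested, 14 lay below control in F2 (median -0.22) and 10 in F3 (median -0.04), none with an unadjusted p under 0.05, and without F2 replicate 2 the F2 count was 11 of 15 and the median -0.02. Their median deviation was 0.29 on control replicate 2 and -0.45 on F2 replicate 2. On F2 replicate 2, 11 of 15 had their lowest value (8.79% of all genes tested).

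Other lists stood apart on the same arrays. On control replicate 2, genes higher in male liver had a median deviation of -0.38, with 13 of 20 at their lowest. Genes higher in female liver had 0.38 there, with 7 of 12 at their highest (14.5% of all genes tested). On F2 replicate 2, the female-biased genes stood at -0.49, all 10 Kupffer cell markers had their highest value, with a median of 0.46, and blood cell markers stood at 0.39. Hepatocyte markers were at -0.03 on both arrays. The shares of all genes tested that were lowest on control replicate 2 or highest on F2 replicate 2 are not given. The summed level of the 10 Kupffer markers ranged from 11.13 to 11.50 in control, 11.09 to 11.84 in F2 and 10.94 to 11.54 in F3 on the log2 scale, and that of the 8 hepatocyte markers from 15.60 to 15.75, 15.64 to 15.75 and 15.71 to 15.76. Of the other cell type markers, Stab1 of sinusoidal endothelium differed by -0.15 in F3 against control and against F2 (unadjusted p 0.0355 and 0.0379 in limma), and Lrat, the retinol-esterifying enzyme of stellate cells, by 0.39 in F3 minus F2 (p 0.0215, and a difference of 0.28 without F2 replicate 2), with adjusted p of 0.9998 or more. The part of these lists in the transferase values was not tested.

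**Figure D5:**
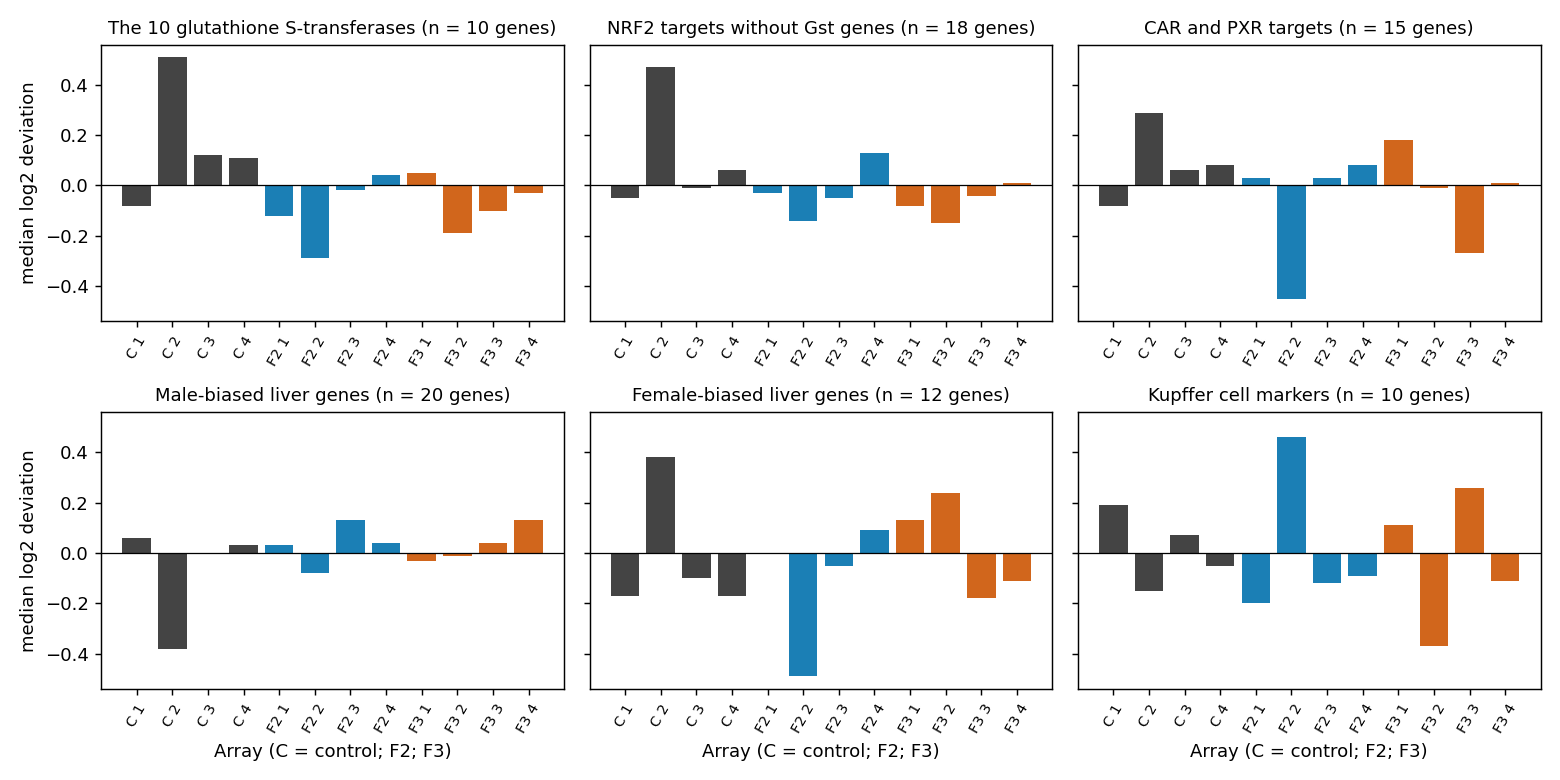
Median log2 deviation from each gene's own mean (vertical axis) on each of the 12 arrays (C, control) for the 10 transferases and 5 other lists, with the number of genes in each title. On control replicate 2 the transferases (0.51) and the NRF2 targets (0.47) are at their highest and the male-biased genes (-0.38) at their lowest, and on F2 replicate 2 the Kupffer cell markers (0.46) are at their highest.

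Genes of the zones of the liver lobule were read as well, and none passed after adjustment in limma. Of 12 tested pericentral genes, those of hepatocytes around the central vein, 11 lay below control in F2 (median -0.12) and 9 in F3 (median -0.09). Lgr5 differed by -0.30 in F3 (SE 0.119, unadjusted p 0.0249, adjusted p 0.9998 in limma). Of 11 tested periportal genes 6 lay below control in each comparison, with medians of -0.00, and Pck1, which starts gluconeogenesis, differed by 0.28 in F2 (SE 0.12, unadjusted p 0.0372, adjusted p 0.9999 in limma).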

How the data were processed

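The deposited table gives a log2 value for each probe set and array. Per the submitters' processing notes, the authors used Affymetrix Expression Console. Not given in the sources used here are its version, its background correction and its normalization. That the scale is log2 was judged from the values' range. Per the labels' protocols, Trizol-extracted RNA was biotin-labelled by a whole-transcript kit. The number of arrays limits the precision.

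Of 72688 probe sets, 30604 carried 1 symbol in the platform annotation, 2146 several (left out) and 39938 none. The platform symbols were updated from RefSeq by Entrez identifier for 827 of 22818 matched probe sets. The brightest probe set stood for each of 30142 genes, and the 18725 genes with a mean above 4.55, the median of all probe sets, were tested. One model without covariates was fitted to the 12 arrays by limma 3.58.1 under R 4.3.3 (lmFit and eBayes), leaving 9 residual degrees of freedom, with Benjamini-Hochberg adjustment over all genes tested. Correlations used two-sided permutation tests. Array sets were split at the widest gap in the mean small nucleolar RNA level. Scripts were tested on simulated data. The members and the gene lists were chosen with earlier results of these data known. Named were all members, list genes with an unadjusted p under 0.05 (up to 4 per list and comparison, by p), and the 3 genes most correlated with the most variable member of each class, without predicted genes. Other genes named are said to have been chosen after their values were seen. Alternative settings covered normalization, centring, filters, probe set choice, variance models, the array sets, a replicate block and left-out arrays.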

Additional observations from a re-analysis of the deposited data

Results flagged for a closer look

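In 66 sets of 4 values (22 transferase genes in 3 groups), 10 held a value whose gap to its nearest neighbour exceeded Dixon's critical share of the set's range. For independent values from a normal distribution, about 1 set in 20 would be marked. The genes share the same arrays, and the share over all genes tested is not given, so no excess can be read from this count. F2 replicate 2 was the array concerned 5 times. It read 9.74 for Gsta3, where the next F2 array read 10.49 (gap ratio 0.884), 8.98 for Gstt1 against 9.55 (0.881), 6.29 for Gstt3 against 7.12 (0.854) and 10.20 for the microsomal transferase Mgst1 against 10.33 (0.883), and it was high for Hpgds, the prostaglandin D synthase, at 4.76 against 4.45 (0.951).

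Control replicate 2 was the array concerned 3 times, each time as the highest of its group: it read 9.80 for Gstt1, where the next control array read 9.57 (gap ratio 0.927), 10.24 for the kappa-class Gstk1 against 10.16 (0.83) and 6.91 for Mgst3 against 5.72 (0.879). F3 replicate 3 read 9.81 for Gstk1 against 10.16 (0.879). Control replicate 4 read 7.25 for the omega-class Gsto1 against 7.64 (0.955). With 1 array per replicate, a property of the animal and one of the array cannot be told apart.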

How the results depend on the processing

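With limma's adjusted p under 0.05, 0 genes were called in each comparison, beside 172, 548 and 443 genes at an unadjusted p under 0.05 in F2, F3 and F3 against F2, and 0 members were called under any alternative. The exception among all genes was the lower array set alone, with 1 F3 array: 2 genes were called in F3 against control (Obp2a and Treh) and 3 in F3 against F2 (with Wfdc12). Of 250 values of members per comparison under alternatives, 245 kept their sign in F2 and 241 in F3 against control, and 226 in F3 against F2. Gstm2 and Gstm6 kept it in all of those against control. In F2, the sign turned without control replicate 2 and F2 replicate 2 for Gsta3 (0.01), Gstt1 (0.04) and Gstt2 (0.17), and with array weights for Gstt2 (0.07). In F3 against control it turned in the lower set for Gsta2 (0.40), Gsta3 (0.29), Gstm1 (0.02), Gstm3 (0.41) and Gstp1 (0.15), and without both replicates for Gsta3 (0.06). In F3 against F2 it turned with array weights for Gsta2 (-0.02) and Gsta4 (-0.04), in the higher set for Gsta2 (-0.13), Gsta3 (-0.02), Gsta4 (-0.03) and Gstm3 (-0.08), in the lower set for Gsta4 (-0.12), Gstm1 (0.11) and Gstm2 (0.11), and for Gsta4 with quantile normalization (-0.00355), the array set as a block (-0.10) and without both replicates (-0.11). The causes were not tested. Leaving out 1 array at a time turned Gstt2 in F2 (-0.37 to 0.05), Gsta3 in F3 against control (-0.08 to 0.06) and, in F3 against F2, Gsta4 (-0.11 to 0.11), Gstm1 (-0.06 to 0.08), Gstm2 (-0.03 to 0.06), Gstm3 (-0.06 to 0.20), Gstp1 (-0.10 to 0.10) and Gstt1 (-0.23 to 0.04). With the replicate number as a block, 0 genes were called in each comparison; same-numbered arrays had deviations that correlated between -0.51 and 0.32, so the numbers gave no pairing. Signal close to that of the control probe sets limits Gsta2, Gstm6 and Gstt2. It also limits other genes named: Nqo1, Gpx7, Gstm5, Lgr5, Chac2, Hpgds and Mgst3, among others, read under 7.05 on every array.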

Other observations

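Beyond the transferases, 5 genes of the sex-biased lists stood apart on control replicate 2, and they were chosen after their values were seen. Cyp2b9, a cytochrome P450 that is higher in female mouse liver, read 8.50 on control replicate 2, which was 4.31 above the mean of the other 11 arrays. Abcd2, a peroxisomal fatty acid transporter, and Acot3, a peroxisomal thioesterase, lay 3.06 and 2.94 above the others on that array. Moxd1, a monooxygenase-like gene that is higher in male liver, differed from the mean of the others by -4.11 there, and Hsd3b5, a male-biased steroid enzyme, by -2.36. Not all genes of these lists went that way. On control replicate 2, 5 of 20 tested male-biased genes lay above their own mean over the 12 arrays. Among these were Bcl6 and Elovl3, 0.78 and 0.54 above the mean of the other 11 arrays. Of 12 tested female-biased genes, 9 lay above their own mean there, and Cux2, Cyp2c40 and Cyp2c69 were below it. All samples are labelled male.

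In the F3 group, genes of the female-biased list differed from control in both directions. Cyp2c40 and Cyp2c69, a pair of closely related P450 genes, were each 0.40 higher in F3 than in control (SE 0.0815 and 0.0926), while Cyp2a4 was lower by a log2 difference of -0.64 (SE 0.292), and none of the 3 passed limma's test after adjustment (adjusted p 0.9998 for each).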
